A study of Mus musculus with 17 samples.

Results

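The early lymphoid priming genes are 8 genes that bone marrow progenitors switch on before they commit to the B or T cell lineage, and their RNA was read here in 6 sorted progenitor populations. They were taken as every non-control probe whose gene name is Dntt, Il7r, Flt3, Rag1, Rag2, Satb1, Bach2 or Blnk, which gave 8 of 28090 gene names and 15 of 41174 probes. The rule takes probes by gene name and uses no measured value, but the 8 genes were chosen with earlier results of these data known. Each gene is represented in gene counts by its brightest probe over the 17 arrays, and its other probes are given beside it.

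The study sorted stem and progenitor cells to match microRNA and mRNA levels along the blood cell hierarchy. Every population came from female C57Bl/6 mice of 6 to 8 weeks, untreated and with no engineered allele, and each sample pooled 10 to 20 animals. Bone marrow was depleted of cells carrying B220, CD3, GR-1 or Ter119 and enriched for c-kit before sorting. Long-term stem cells (LT-HSC, 2 arrays) were c-kit+ Sca-1+ CD34- FLT3-, short-term stem cells (ST-HSC, 3 arrays) were CD34+ FLT3-, and multipotent progenitors (MPP, 3 arrays) were CD34+ FLT3+. Common myeloid progenitors (CMP), granulocyte-monocyte progenitors (GMP) and megakaryocyte-erythroid progenitors (MEP), with 3 arrays each, came from a separate sort of Sca-1- cells by CD34 and the Fc gamma receptor. No gate used the IL-7 receptor, and common lymphoid progenitors were not among the populations.

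A multipotent progenitor that is on its way to the lymphoid lineages raises a receptor for Flt3 ligand, the IL-7 receptor, and the enzymes that cut and trim antigen receptor genes. Rag1 and Rag2 together form the recombinase, and Dntt (terminal deoxynucleotidyl transferase) adds bases to the cut ends. Satb1 organises chromatin in lymphoid precursors, Bach2 is a transcriptional repressor needed for B and T cell development, and Blnk is the adaptor that carries the signal of the pre-B cell receptor. These genes are the usual signs of lymphoid priming in cells that can still make other lineages. Their levels here are those of bulk populations, and the part of other cells in them was not tested.

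Dntt was read by 3 probes, and a stretch of each is shown to tell apart what they measure. The first ends at the poly(A) signal of the transcript, given in capitals, the second lies 115 bases upstream, and the third covers 1570 bases of the genome with 60 bases of sequence, so it crosses an intron. Coordinates are those of the whole probes. The third is the only one listed with a second Dntt transcript alone.
Dntt probe A_51_P516085 (mm9 chr19:41133936-41133995, plus strand, last 30 bases): tgtctgaatctctgtgtattgccAATAAAa
Dntt probe A_52_P601437 (mm9 chr19:41133761-41133820, plus strand, middle 30 bases): cagagagaatattctaaggcaactttgaag
Dntt probe A_52_P169420 (mm9 chr19:41115786-41117355, plus strand, middle 30 bases): gctaaagctgtgttaaatgatgagcgatat

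The study tested Bach2 as a target of miR-144, so the probes were also searched for the 7 letters that pair with the seed of that microRNA. The mature sequence comes from RefSeq (GRCm38.p6), with its seed, bases 2 to 8, in capitals. The matching letters ATACTGT, searched on the transcript's strand, were found in 3 of the 15 probes and in 0.653% of all 41174 probes. The 3 windows are shown with the match in capitals. A match is a description of the letters, and the files do not say which part of a transcript a probe lies in.
mmu-miR-144-3p: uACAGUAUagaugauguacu
Bach2 probe A_52_P184618 (mm9 chr4:32668066-32668125, plus strand): tctctgcggATACTGTacagcaatggtcaa
Rag1 probe A_51_P232411 (mm9 chr2:101478813-101478872, minus strand): tatgccattagATACTGTatggcagttgtt
Rag2 probe A_52_P259521 (mm9 chr2:101472445-101472504, plus strand): tcacatgtcattcaaggtccaATACTGTgc

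Levels are log2 intensities after quantile normalization, and a probe is called well above background where the scanner software says so for a share of at least 0.5 of its spots. Tests are from 1 limma model over all 17 arrays and all 41174 probes, with Benjamini-Hochberg adjusted p and a threshold of 0.05. Values are listed as pooled then unnumbered for LT-HSC, as replicates 2, 3 and unnumbered for ST-HSC and MPP, and as replicates 1, 2 and unnumbered for CMP, GMP and MEP. Levels of different probes are not set against each other, because probes differ in brightness. Per the study's methods, LT-HSC, ST-HSC and MPP were collected in the same sort and the myeloid populations together in another, so arrays of different populations can come from the same pooled animals. The labels give the pooled LT-HSC array as a pool of replicates 2 and 3, numbers that ST-HSC and MPP also carry. The p-values take the arrays as independent and measure the spread between these samples only. In bulk samples, fewer cells with a transcript and less of it per cell cannot be told apart.

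Between 41.4% and 70.1% of spots were well above background per array, and the lowest share was that of the unnumbered LT-HSC array, which was also the dimmest (75th-percentile intensity 53.1 against 243.3 to 533.8 on the other arrays). The labels were checked against marker genes fixed by name. The stem cell list (Procr, Hlf, Meis1) passed the test as higher in the 3 stem cell subsets for all 3 genes, all 3 MEP genes (Gata1, Klf1, Epor) were higher in MEP than in GMP, and all 4 GMP genes (Mpo, Ela2, Prtn3, Ctsg) were lower. The sort genes followed the gates only in part. Cd34 was 14.82 and 15.11 in LT-HSC, sorted as CD34-, against 15.79 to 15.98 in ST-HSC (adjusted p = 0.388), whereas it was 8.74 to 10.93 in MEP. Ly6a, the gene of Sca-1, was 8.95 to 10.25 in the Sca-1- GMP and 9.41 to 10.59 in MPP, and Kit lay between 10.45 and 12.06 on every array. The LT-HSC arrays and the unnumbered MEP array also carried genes of other cells, which are given below beside the members they move with.

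Across the 6 populations, most members were highest in MPP, and the lowest population differed between genes. MPP had the highest mean for 7 of the 8 genes, all but Blnk. GMP had the lowest mean for Dntt, Il7r, Bach2 and Blnk and MEP for Flt3 and Satb1, while Rag1 and Rag2 were too dim in several populations for a lowest one to be named. The F-test of equal means passed for 12 of the 15 probes and for the brightest probe of all 8 genes, against 40.6% of all probes. The probes that did not pass were A_52_P555957 and A_52_P32750 of Il7r and A_52_P646895 of Rag1, all 3 dim. Of the 15 probes, 11 were well above background on at least 6 arrays and 7 on all 17 arrays.

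**Figure D1:**
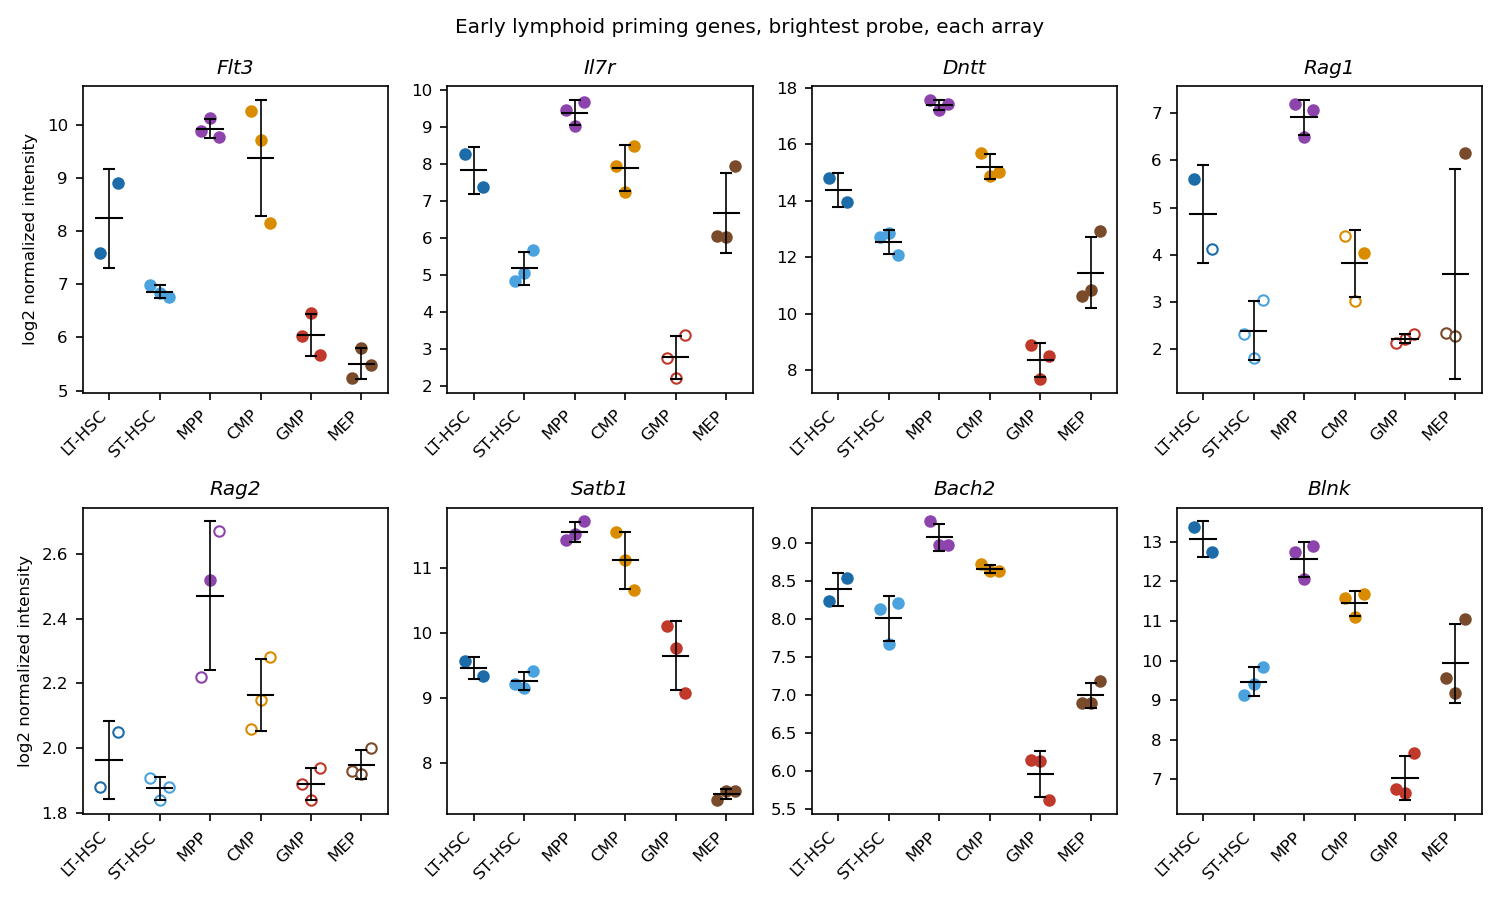
Log2 normalized intensity of the brightest probe of each gene (vertical axis) on each of the 17 arrays by population (horizontal axis); filled points are well above background, open points are not, and bars give the mean and SD. The 3 MPP arrays stand above the 3 ST-HSC arrays in each panel, and the unnumbered MEP array stands above the other MEP arrays for Il7r, Dntt, Rag1 and Blnk.

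Flt3 encodes the receptor whose protein separated ST-HSC from MPP, so its RNA in that pair describes the gate. The Flt3 level was 7.58 and 8.90 in LT-HSC, 6.99, 6.83 and 6.76 in ST-HSC, and 9.89, 10.12 and 9.77 in MPP. It was 10.26, 9.71 and 8.16 in CMP, 6.03, 6.45 and 5.66 in GMP, and 5.23, 5.80 and 5.49 in MEP. MPP and CMP were thus the high populations and overlapped each other, and LT-HSC, which was sorted as FLT3- like ST-HSC, lay above all ST-HSC arrays. The mean difference between MPP and CMP was 0.55 ± 0.45 (SE, adjusted p = 0.478), and that of LT-HSC over ST-HSC was 1.38 ± 0.51 (adjusted p = 0.171). The latter, taken as ST-HSC minus LT-HSC, was -2.04 without the pooled LT-HSC array and -2.38 with the replicate number as a block. Both fits rest on the unnumbered LT-HSC array alone, since no other array shares the replicate label of the pooled one. CMP exceeded GMP by 10.1-fold (adjusted p = 0.000794) and MEP by 14.6-fold (adjusted p = 4.4e-05). The CMP spread came from the unnumbered array. Without it the log2 differences of GMP and MEP from CMP went from -3.33 to -3.94 and from -3.87 to -4.48, and the difference of CMP from MPP changed sign to 0.06 (adjusted p = 0.95).

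Il7r encodes the chain of the IL-7 receptor that gives it its specificity, through which early B and T cell precursors receive their growth signal. Its brightest probe (A_51_P196695, mm9 chr15:9435976-9436035, minus strand) read 8.27 and 7.37 in LT-HSC, 4.82, 5.04 and 5.68 in ST-HSC, and 9.46, 9.01 and 9.68 in MPP. It read 7.94, 7.25 and 8.47 in CMP, 2.75, 2.20 and 3.36 in GMP, and 6.05, 6.03 and 7.93 in MEP. MPP stood above every array of the other populations, and none of the 3 GMP arrays was well above background. Il7r was 18.4-fold higher in MPP than in ST-HSC (adjusted p = 0.000596) and fell from CMP to GMP by a factor of at least 12.5 (adjusted p = 6.89e-05), the bound being set by the lowest signal that counted as above background on the GMP arrays.

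MEP, unlike GMP, held Il7r well above background on all 3 arrays. The difference of MEP over GMP was at least 5.38-fold (adjusted p = 8.45e-05), and that of MEP from CMP was -1.21 ± 0.51 (adjusted p = 0.141). The highest MEP value, 7.93, was that of the unnumbered array, and without that array the difference from CMP was -1.84 and passed the test (adjusted p = 0.0114), as it did with scan day as a block (-1.45, adjusted p = 0.00652). The other 2 Il7r probes did not follow the first: A_52_P555957, 4907 bases away in the genome, was well above background on 7 arrays, with 3.61 to 4.17 in MPP and 4.20 to 4.56 in CMP, and A_52_P32750 on none. The correlation of A_51_P196695 with A_52_P555957 over the 17 arrays was 0.25.

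Dntt, which adds bases to the cut ends of antigen receptor genes, was well above background on all 17 arrays with its 2 brighter probes. The brightest read 14.80 and 13.96 in LT-HSC, 12.73, 12.84 and 12.06 in ST-HSC, and 17.56, 17.20 and 17.41 in MPP. It read 15.70, 14.88 and 15.02 in CMP, 8.88, 7.69 and 8.49 in GMP, and 10.64, 10.82 and 12.91 in MEP. The order was MPP, CMP, LT-HSC, ST-HSC, MEP and GMP, and in it only MPP and CMP (2.19 ± 0.52, adjusted p = 0.0172) and MEP and GMP (3.10 ± 0.52, adjusted p = 0.000699) differed as neighbours. The step from ST-HSC to MPP was 28.8-fold (adjusted p = 0.000282) and that from CMP to GMP was 115-fold downwards (adjusted p = 1.24e-05).

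The other Dntt probes were also highest in MPP and lowest in GMP, and the correlations among the 3 were between 0.91 and 0.99. They differed in the order of 2 populations, since MEP lay below ST-HSC on the brightest probe (mean 11.46 against 12.54) and above it on the junction probe (5.90 against 4.31). The junction probe A_52_P169420 read 9.94, 9.75 and 10.18 in MPP and 4.12, 4.10 and 4.72 in ST-HSC, a 50.1-fold difference (adjusted p = 5.88e-05). It was measured above background on 0 of 3 GMP arrays, so its fall from CMP to GMP was at least 29.5-fold. In CMP it read 9.33 in replicate 2, 8.04 in the unnumbered array and 10 in replicate 1, so here CMP overlapped MPP (difference -0.83 ± 0.48, adjusted p = 0.284), while the other 2 probes were lower in CMP on every array.

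Rag1 and Rag2, which work only as partners, lie side by side on chromosome 2, with 6308 bases between their brightest probes. Rag1 read 5.60 and 4.13 in LT-HSC, 2.31, 1.81 and 3.05 in ST-HSC, and 7.19, 6.50 and 7.06 in MPP. It read 4.40, 3.03 and 4.03 in CMP, 2.12, 2.22 and 2.32 in GMP, and 2.35, 2.27 and 6.16 in MEP. It was well above background on only 6 arrays, all 3 MPP arrays, the pooled LT-HSC array, the unnumbered CMP array and the unnumbered MEP array, so the MPP arrays were the only complete group in which it was measured. Rag1 was at least 15.3-fold higher in MPP than in ST-HSC (adjusted p = 0.0101). For dim probes the size of the difference moved with the processing. On the log2 scale 4.53 for Rag1 and 4.21 for Il7r became 1.03 and 2.31 with normexp and an offset of 50. That setting shrinks low differences by construction, and both were still past the threshold. The 4.53 uses ST-HSC values that were not well above background, so it is not a measured size.

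The second Rag1 probe, A_51_P232416, lies 105 bases from the first and had 10 spots per array. It gave 6.39, 5.84 and 6.21 in MPP, 5.11 in the pooled LT-HSC array and 5.20 in the unnumbered MEP array, and was not well above background on the other 12 arrays. Its rise from ST-HSC to MPP was at least 8.99-fold (adjusted p = 0.0119). The third probe, A_52_P646895, lies 5804 bases away and was well above background on 2 MPP arrays alone. Rag2 was at the edge of detection: its probe read 2.22, 2.52 and 2.67 in MPP and between 1.84 and 2.28 elsewhere, and was well above background on 1 array (MPP replicate 3). Its difference of 0.60 ± 0.13 between MPP and ST-HSC passed the test (adjusted p = 0.0345) but had an adjusted p of 0.657 after normexp background correction and 0.463 in the authors' table.

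**Figure D2:**
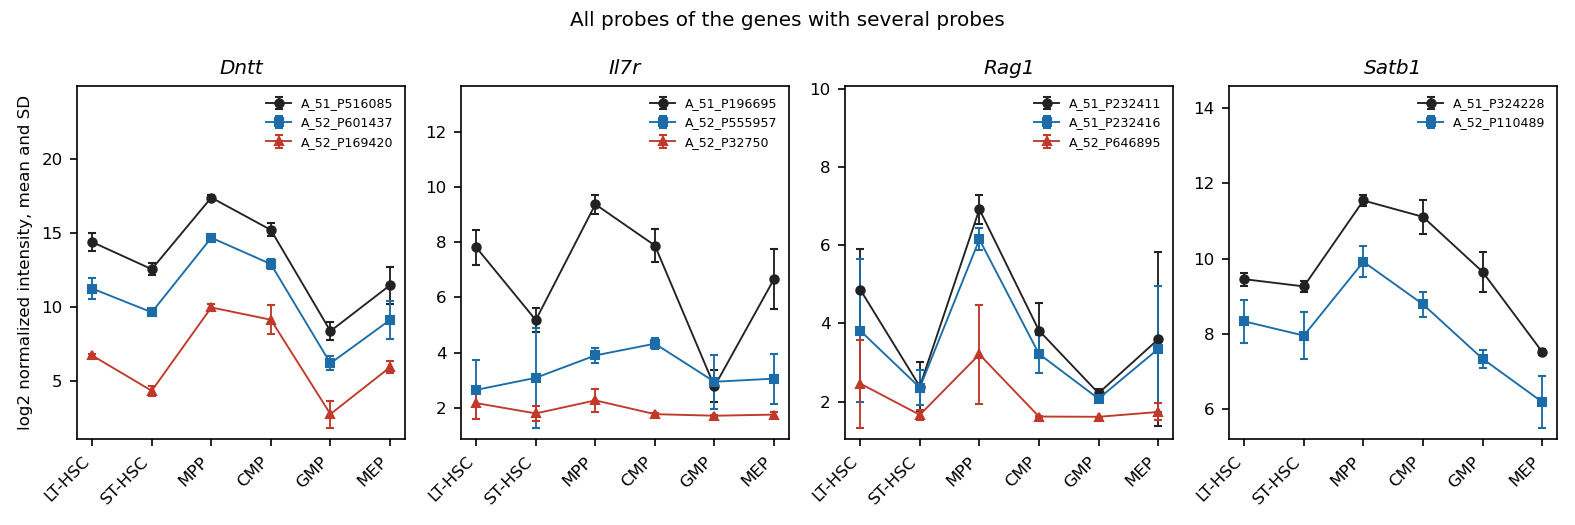
Mean log2 normalized intensity (vertical axis) with SD for every probe of the 4 genes with several probes, by population (horizontal axis). The 3 Dntt probes, the first 2 Rag1 probes and both Satb1 probes are all highest in MPP. The order of lower populations differs between the probes of each of these genes. A_52_P555957 and A_52_P32750 of Il7r stay between 1.71 and 4.32.

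Satb1, the chromatin organiser, was well above background on all 17 arrays with both probes. The brightest read 9.57 and 9.33 in LT-HSC, 9.21, 9.15 and 9.41 in ST-HSC, and 11.42, 11.51 and 11.71 in MPP. It read 11.55, 11.12 and 10.66 in CMP, 10.10, 9.77 and 9.07 in GMP, and 7.42, 7.57 and 7.56 in MEP. MPP was 4.89-fold above ST-HSC (adjusted p = 0.000336) and overlapped CMP (adjusted p = 0.286), and MEP lay below every other array. Satb1 was the one member that passed as lower in MEP than in GMP, by 4.38-fold (adjusted p = 3.9e-05). The second probe, A_52_P110489, is 67267 bases away and gave 3.91-fold for MPP over ST-HSC (adjusted p = 0.0159) and an adjusted p of 0.0581 for MEP against GMP.

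Bach2, the repressor whose probe holds the miR-144 seed match shown above, was well above background on all 17 arrays. It read 8.24 and 8.55 in LT-HSC, 8.14, 7.67 and 8.22 in ST-HSC, and 9.29, 8.98 and 8.98 in MPP. It read 8.73, 8.64 and 8.63 in CMP, 6.14, 6.13 and 5.61 in GMP, and 6.90, 6.90 and 7.18 in MEP. Both lineage-restricted myeloid groups lay below every array of the other 4 populations, and GMP lay below MEP. Bach2 was 2.1-fold higher in MPP than in ST-HSC (adjusted p = 0.0094), 6.56-fold lower in GMP than in CMP (adjusted p = 1.02e-05) and 3.2-fold lower in MEP than in CMP (adjusted p = 3.66e-05). The study placed Bach2 on its lists of GMP and MEP targets and Rag1 on that of GMP targets, both chosen on these samples, so these directions are not independent of that choice.

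Blnk, the adaptor downstream of the pre-B cell receptor, was the one member whose highest population was LT-HSC. It read 13.38 and 12.75 in LT-HSC, 9.12, 9.42 and 9.85 in ST-HSC, and 12.73, 12.06 and 12.88 in MPP. It read 11.58, 11.09 and 11.68 in CMP, 6.75, 6.67 and 7.67 in GMP, and 9.55, 9.18 and 11.05 in MEP. LT-HSC and MPP overlapped (0.50 ± 0.50, adjusted p = 0.612), with ST-HSC between them in the hierarchy but far below both. Blnk was 12.1-fold lower in ST-HSC than in LT-HSC (adjusted p = 0.00137), 8.54-fold higher in MPP than in ST-HSC (adjusted p = 0.00204) and 21.4-fold lower in GMP than in CMP (adjusted p = 7.41e-05).

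Of the 5 steps plotted, the one that most members shared was that from ST-HSC to MPP, where 12 of the 15 probes and the brightest probe of each of the 8 genes were higher and none was lower. Without Flt3, whose protein defined the gate, 11 of 14 probes and 7 of 7 genes were higher, against 1.15% of all 41174 probes. The median difference over the 15 probes was 3.07, and that over all probes was 0.01. Each array of MPP exceeded each array of ST-HSC for the brightest probe of every gene. The share of all probes separated in this way was not counted. For Rag2, only MPP replicate 3 among these arrays was well above background. Within the scan day that held 2 arrays of both populations, the differences were 4.59 for Dntt, 4.31 for Il7r, 3.13 for Blnk, 2.29 for Satb1 and 1.23 for Bach2. Leaving out ST-HSC replicate 3 or MPP replicate 2 took the brightest Rag1 probe to adjusted p values of 0.0571 and 0.0522, and leaving out MPP replicate 2 took Bach2 to 0.0569. With either of these arrays left out, 8 member probes passed. Rag2 lost its call in 11 of the 17 fits with 1 array left out, with adjusted p of up to 0.141.

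Marker lists of other cells moved in part with this step. Single markers of these lists, here and in the next paragraphs, were chosen after their values were seen. The list of plasmacytoid dendritic cells rose for 3 of 4 genes, from a summed 11.05 to 11.49 in ST-HSC to 12.18 to 12.37 in MPP, while its marker Siglech was not well above background in either population. The NK cell list went from 7.23 to 7.50 to 8.52 to 9.14, and 1 of its 4 genes, Klrd1, passed as higher. The T cell and B cell lists overlapped between the populations (7.93 to 8.85 in MPP against 7.19 to 8.01, and 6.09 to 6.28 against 5.53 to 7.23), and 1 of 5 T cell genes, Cd8a, was higher, at 7.32 to 8.10 against 2.74 to 3.38. In the other direction, the 3 MEP genes all fell, from a summed 10.43 to 10.99 to 7.35 to 8.64, and the GMP genes went from 18.30 to 19.01 to 16.09 to 17.50 with none past the threshold. The part of such cells in the MPP values was not tested.

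**Figure D3:**
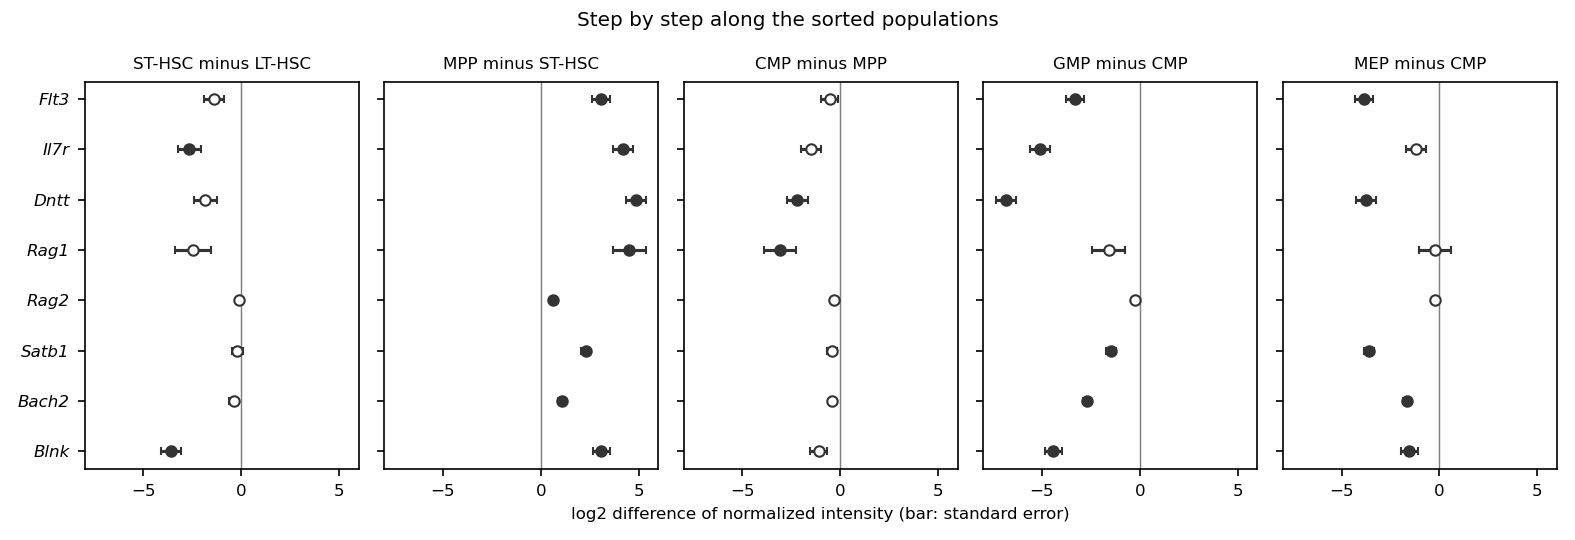
Log2 difference of normalized intensity (horizontal axis) for the brightest probe of each gene (vertical axis) at 5 steps between populations; bars are standard errors, and filled points passed an adjusted p of 0.05. All 8 points are filled and above 0 in MPP minus ST-HSC, and no point is filled above 0 in the other 4 steps.

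The step from LT-HSC to ST-HSC ran the other way. Blnk, Il7r and the junction probe of Dntt fell, 3 of the 15 probes, against 2.49% of all probes lower, and no member rose. Il7r was 6.26-fold lower in ST-HSC (adjusted p = 0.0249) and the junction probe of Dntt 5.25-fold lower (adjusted p = 0.0308), with values of 6.77 and 6.64 in LT-HSC. The brightest Dntt probe was -1.84 ± 0.58 (adjusted p = 0.108), Rag1, not well above background in ST-HSC, was -2.48 ± 0.92 (adjusted p = 0.177), and Satb1 (-0.20 ± 0.28) and Bach2 (-0.38 ± 0.22) did not pass. Both LT-HSC arrays were on a slide of their own, scanned on the same day as ST-HSC replicates 2 and 3, and within that day the differences were -3.79 for Blnk and -2.90 for Il7r. The Il7r difference had an adjusted p of 0.0775 without ST-HSC replicate 2, 0.0732 without ST-HSC replicate 3 and 0.0733 without the pooled LT-HSC array. It was -2.29 after 75th-percentile normalization (adjusted p = 0.0644). With the replicate number as a block it was -1.53, and LT-HSC then rests on its unnumbered array alone. Rag1 passed with scan day as a block (-3.08, adjusted p = 0.0196) and without the unnumbered MEP array (adjusted p = 0.0166), and the brightest Dntt probe without that array too (adjusted p = 0.0233). One probe passed without either of these ST-HSC replicates, and 6 passed without the unnumbered MEP array. Against MPP, LT-HSC was exceeded by all 3 Dntt probes and both Satb1 probes, 5 of 15 against 2.93% of all probes higher, with 8.03-fold for the brightest Dntt probe (adjusted p = 0.00842).

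The LT-HSC arrays that carried this Blnk, Il7r and Dntt signal also carried genes of other cells. The summed level of the 4 B cell markers (Ms4a1, Cd22, Pax5, Fcer2a) was 10.12 and 9.04 in LT-HSC and 5.09 to 7.92 on the other 15 arrays. Ms4a1 (CD20) read 10.06 and 8.92 in LT-HSC against 1.57 to 6.62 elsewhere, and it was the 1 of the 4 that passed between LT-HSC and ST-HSC. Cd22 was 4.26 to 4.37 in LT-HSC against 4.39 to 5.33 in ST-HSC and 7.51 to 7.80 in CMP, Pax5 was well above background on 4 of 17 arrays and Fcer2a on none. The 4 NK cell markers summed to 9.69 and 9.22 in LT-HSC and 7.23 to 7.50 in ST-HSC, and the 5 T cell markers to 8.70 and 8.63 against 7.19 to 8.01. The 3 MEP genes summed to 13.00 and 12.06 in LT-HSC against 10.43 to 10.99 in ST-HSC, and the 4 mature neutrophil genes to 16.32 and 17.50 against 15.57 to 17.01. The part of such cells in the LT-HSC values of the members was not tested.

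**Figure D4:**
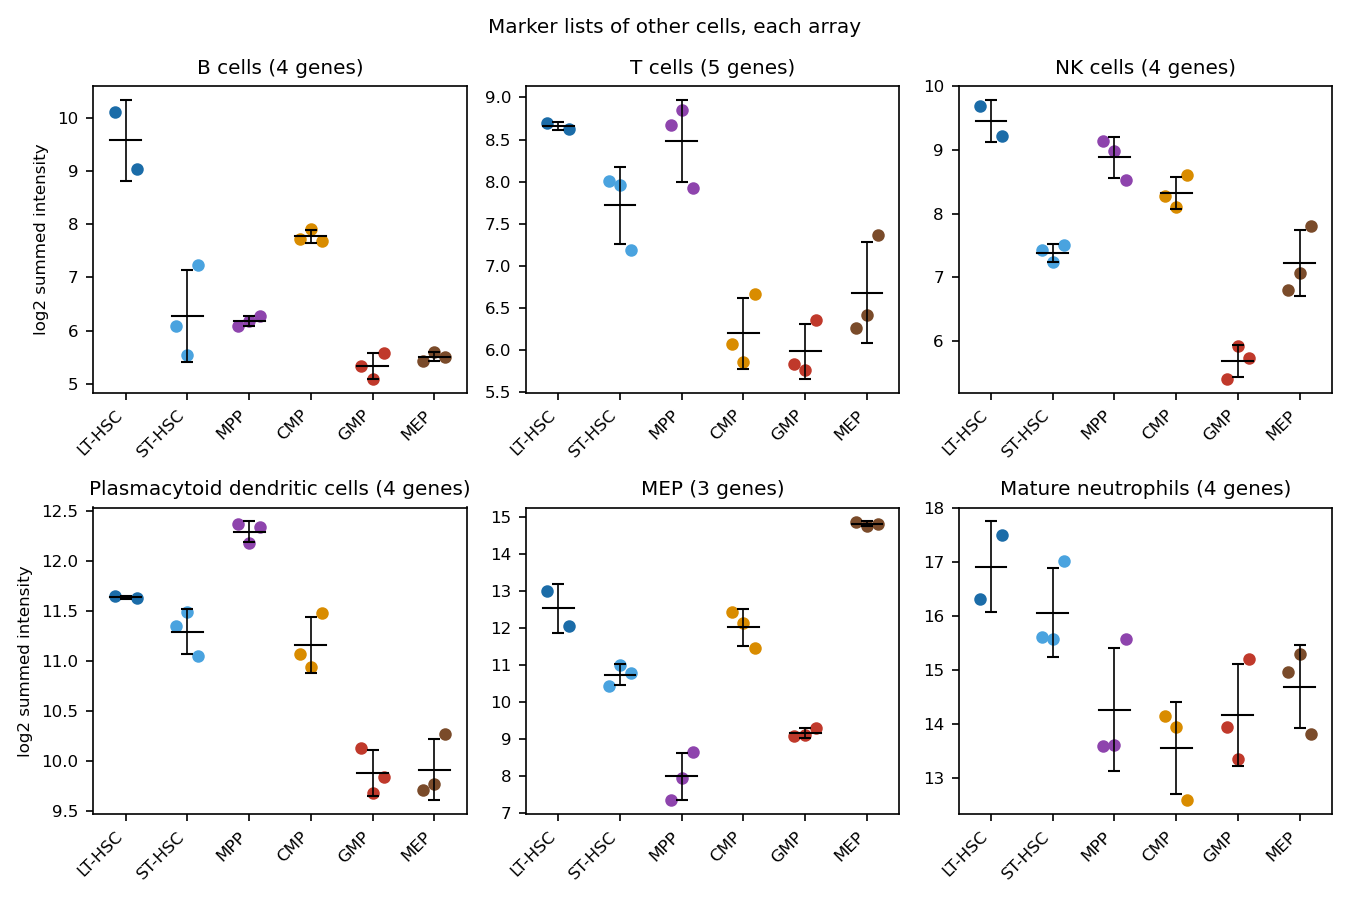
Log2 of the summed normalized intensity (vertical axis) of 6 marker lists on each of the 17 arrays by population (horizontal axis), with the mean and SD. The B cell list is 9.04 and 10.12 in LT-HSC and at most 7.92 elsewhere, and the unnumbered MEP array is the highest MEP array for the T cell, NK cell and plasmacytoid dendritic cell lists.

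From MPP to CMP, Dntt and Rag1 passed as lower, with 2 probes each, 4 of 15 against 5.39% of all probes lower, and none was higher. Dntt was 4.57-fold lower in CMP (adjusted p = 0.0172), and Rag1 was lower by 3.09 ± 0.83 on the log2 scale (adjusted p = 0.0291), with 1 of 3 CMP arrays well above background. The second Rag1 probe was at least 4.73-fold lower (adjusted p = 0.0187). Il7r (-1.49 ± 0.51, adjusted p = 0.0735), Blnk (-1.11 ± 0.44, adjusted p = 0.121), Bach2 (-0.41 ± 0.19, adjusted p = 0.181) and Satb1 (-0.44 ± 0.25) did not pass. Il7r did pass with normexp (-1.12, adjusted p = 0.00939), in the authors' table (-1.34, adjusted p = 0.0137), with the replicate number as a block (-1.52, adjusted p = 0.0268) and without the unnumbered MEP array (adjusted p = 0.025). With the replicate number as a block Dntt no longer passed (-2.20, adjusted p = 0.0579). On the scan day that held 1 array of each population, Dntt differed by -2.40 and Rag1 by -3.03. With scan day as a block in the model, no member probe passed in this comparison (Dntt -1.39, adjusted p = 0.351, and Rag1 -2.27, adjusted p = 0.138), and without CMP replicate 2 none passed either. Without MPP replicate 2, MPP replicate 3 or CMP replicate 1, the numbers that passed were 1, 2 and 2, and without the unnumbered MEP array 7. Marker lists moved with this step too. All 3 stem cell genes were lower in CMP (9.91 to 10.27 against 13.17 to 13.65), all 3 MEP genes were higher (11.47 to 12.43 against 7.35 to 8.64), and 2 of 4 GMP genes were higher (17.93 to 19.05 against 16.09 to 17.50). Of the 4 plasmacytoid dendritic cell genes 2 were lower and 1 higher (10.94 to 11.48 against 12.18 to 12.37). The T cell list summed to 5.86 to 6.67 against 7.93 to 8.85, with 1 of 5 genes lower, and the B cell list to 7.69 to 7.92 against 6.09 to 6.28, with 1 of 4 higher. No NK cell or mature neutrophil gene passed. The part of such cells in the CMP and MPP values was not tested.

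Most members were lower in GMP than in CMP. This held for 9 of the 15 probes, against 2.93% of all probes lower, and none was higher. The 9 were the 3 Dntt probes, the brightest Il7r probe, Flt3, both Satb1 probes, Bach2 and Blnk, with folds from 2.73 for the second Satb1 probe to 115 for Dntt. Rag1 and Rag2 were not called, and of these 2 genes only Rag1 was well above background in CMP, on the unnumbered array. The direction was the same on both scan days that held CMP and GMP: Dntt differed by -7.00 and -6.53, Blnk by -4.62 and -4.01, Flt3 by -3.75 and -2.49, and Bach2 by -2.56 and -3.03. Markers of other cells were also lower in GMP than in CMP. The NK cell list summed to 5.40 to 5.91 against 8.10 to 8.60 (2 of 4 genes passed as lower), that of plasmacytoid dendritic cells to 9.68 to 10.13 against 10.94 to 11.48 (3 of 4), and the B cell list to 5.09 to 5.57 against 7.69 to 7.92 (1 of 4). The 3 MEP genes were all lower in GMP (9.08 to 9.30 against 11.47 to 12.43), as were 2 of the 3 stem cell genes (8.67 to 9.01 against 9.91 to 10.27). Siglech and Cd300c, of the plasmacytoid dendritic cell list, were 4.07 to 4.86 and 4.11 to 4.88 in CMP. The part of such cells in the GMP and CMP values was not tested.

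In MEP, 8 of the 15 probes were lower than in CMP, against 9.43% of all probes lower, and none was higher. Dntt was 13.4-fold lower (adjusted p = 0.000182), Flt3 14.6-fold (adjusted p = 4.4e-05), Satb1 12.1-fold (adjusted p = 7.04e-07), Bach2 3.2-fold and Blnk 2.88-fold (adjusted p = 0.0305). Without the unnumbered MEP array 9 probes passed, and the log2 difference of Dntt went from -3.74 to -4.47. Blnk no longer passed without the unnumbered CMP array (adjusted p = 0.0943), CMP replicate 1 (0.0914), MEP replicate 1 (0.114) or MEP replicate 2 (0.132). It also lost the call after 75th-percentile normalization (-1.31, adjusted p = 0.102). Il7r and the recombinase genes did not pass. Set against GMP, MEP was higher for 6 probes (3 of Dntt, and 1 each of Il7r, Bach2 and Blnk), against 7.81% of all probes higher, and lower for the brightest Satb1 probe, 1 of 15 against 9.56% of all probes lower. On the scan day that held 2 arrays each of MEP and GMP, and not the unnumbered MEP array, these differences were 2.45 for Dntt, 2.65 for Blnk, 0.76 for Bach2 and -2.44 for Satb1.

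Marker lists also differed between MEP and the other myeloid populations. Against CMP, 2 of 4 plasmacytoid dendritic cell genes (9.71 to 10.27 against 10.94 to 11.48), 1 of 4 B cell genes (5.42 to 5.60 against 7.69 to 7.92) and all 3 stem cell genes (6.95 to 7.55 against 9.91 to 10.27) passed as lower, and of the 4 NK cell genes 1 was higher and 1 lower. Of the 4 GMP genes, 3 were lower in MEP than in CMP (13.87 to 16.71 against 17.93 to 19.05), and all 3 MEP genes were higher (14.75 to 14.88 against 11.47 to 12.43). Against GMP, 2 of 4 NK cell genes passed as higher (6.80 to 7.81 against 5.40 to 5.91), with 1 of 5 T cell genes and 1 of 4 plasmacytoid dendritic cell genes. All 3 stem cell genes were lower in MEP than in GMP (6.95 to 7.55 against 8.67 to 9.01). The unnumbered MEP array stood apart from the other 2 for several members. It was the highest MEP array for Dntt (12.91 against 10.64 and 10.82), Il7r (7.93 against 6.05 and 6.03), Blnk (11.05 against 9.55 and 9.18) and Rag1 (6.16 against 2.35 and 2.27), but not for Flt3 (5.49 against 5.23 and 5.80). On this array the 5 T cell markers summed to 7.37 against 6.26 and 6.42, the 4 NK cell markers to 7.81 against 6.80 and 7.06, and the 4 plasmacytoid dendritic cell markers to 10.27 against 9.71 and 9.77. The 4 B cell markers did not follow, with 5.50 against 5.42 and 5.60. Siglech, a marker of plasmacytoid dendritic cells, read 5.39 there and was not well above background on the other 2 MEP arrays. The part of such cells in the MEP values of the members was not tested.

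The mean of the 3 stem cell subsets passed as higher than that of the 3 myeloid populations for 12 of the 15 probes. The share of all probes higher was 18.2%. By brightest probe this held for 7 of the 8 genes, all but Rag2. The differences of the means ran from 0.66 ± 0.15 for Satb1 (adjusted p = 0.0035) to 3.10 ± 0.31 for Dntt (adjusted p = 7.02e-06). The groups overlapped for every member. Single populations could run the other way. In CMP against ST-HSC, 8 of the 15 probes and 6 of the 8 genes were higher in CMP and 0 lower, against 2762 of all 41174 probes higher. On the scan day that held MPP, CMP and GMP, the difference was 5.66 for Dntt and 3.20 for Blnk, whereas on the day that held the unnumbered ST-HSC and MEP arrays it was -0.86 for Dntt, -2.26 for Il7r and -1.19 for Blnk, and 1.27 for Flt3, 1.85 for Satb1 and 1.05 for Bach2. That MEP array is the one that stood apart, and Rag1 was well above background on it and not on the ST-HSC array. With scan day as a block, 9 probes passed, and Rag1 was 0.62 with an adjusted p of 0.605. Marker lists differed between these groups as well: all 5 T cell genes (median difference 1.63), 3 of 4 NK cell genes, 3 of 4 mature neutrophil genes, 2 of 4 plasmacytoid dendritic cell genes and all 3 stem cell genes passed as higher in the stem cell subsets. Of the 4 B cell genes 2 were higher and 1 lower, and all 3 MEP genes and 1 of 4 GMP genes were lower. The part of such cells in this comparison was not tested.

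Over the 17 arrays, the highest correlations between brightest probes were 0.95 for Dntt and Bach2, 0.95 for Il7r and Blnk, 0.93 for Dntt and Il7r and 0.91 for Dntt and Blnk. Satb1 ran closest to Flt3 (0.88) and least with Blnk (0.41) and Il7r (0.42). These correlations describe 17 arrays that share their populations, sorts and scan days. Among 16608 other genes measured on at least 6 arrays, the pattern most like that of Il7r was Arpp21 (0.98), and the next were Myl4 (0.94) and Klrd1 (0.93). For Dntt they were an unnamed cDNA (0.95), Rgl1 (0.94) and Dhrs2 (0.94), for Bach2 Efna4 (0.95), the same cDNA (0.94) and Cd96 (0.94), and for Blnk Klrd1 (0.96), Pacsin1 (0.93) and Sdc1 (0.93). Klrd1 is also on the NK cell list used here, and Pacsin1 on that of plasmacytoid dendritic cells. For Satb1 they were Med13l (0.97), Il12a (0.97) and 5031439G07Rik (0.96), for Flt3 Evpl (0.94), H2-Ob (0.93) and Kif5a (0.92), for Rag1 Chl1 (0.93), Bfsp2 (0.92) and an unnamed transcript (0.90), and for Rag2 Notch4 (0.92), Klhl30 (0.84) and Myl4 (0.83).

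The wider lymphoid programme was read on 5 lists of genes. Of their 49 genes, 2 passed as higher in MPP than in ST-HSC, against 1.37% of the brightest probes of all 28090 gene names, and 1 as lower, against 1.09%. Both that rose were early lymphoid surface genes: Ccr9, a chemokine receptor of thymus-seeding progenitors, by 3.21 ± 0.28 (adjusted p = 7.2e-05) and Notch1, the receptor that directs T cell fate, by 1.94 ± 0.30 (adjusted p = 0.00325). Polm, a DNA polymerase of the end-joining step and a relative of Dntt, fell by 1.11 ± 0.19 (adjusted p = 0.00592). None of the 8 other genes of IL-7 and Flt3 signalling, the 12 lymphoid transcription factors or the 10 genes of the pre-B cell receptor passed there, with median differences of -0.01, 0.39 and 0.16. The median was 0.46 for the 8 early lymphoid surface genes and -0.03 for the 11 recombination partners, against 0.01 over the brightest probe of every gene. Ebf1, the factor that commits cells to the B lineage, was not well above background on any array.

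From MPP to CMP, 8 of these 49 genes were lower, against 6.51% of all genes by their brightest probes, and 5 were higher, against 5.75%. In IL-7 receptor signalling, the kinase Jak3 fell by 1.40 ± 0.19 (adjusted p = 0.000731), Jak1 by 0.73 ± 0.21 (adjusted p = 0.0361), and Crlf2, which pairs with the IL-7 receptor chain to bind TSLP, by 0.74 ± 0.17 (adjusted p = 0.0131). Among the transcription factors, Ikzf1 (Ikaros) fell by 0.87 ± 0.19 (adjusted p = 0.0118), and Tcf7 rose by 1.87 ± 0.42 (adjusted p = 0.0138) and Spib by 1.36 ± 0.27 (adjusted p = 0.00725). Ebf1 also passed as lower but was not measured above background in either group. Of the recombination partners, Xrcc4 fell by 1.13 ± 0.26 and Prkdc and Polm rose by 1.05 ± 0.23 and 0.80 ± 0.19. Ccr9 fell by 2.94 ± 0.28, and of the pre-B cell receptor genes Syk rose by 0.87 ± 0.25 and Plcg2 fell by 0.58 ± 0.16.

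From LT-HSC to ST-HSC, 6 of the 49 genes were lower, against 2.93% of all genes by their brightest probes, and none was higher. Ly6d, a surface protein of B cell precursors, fell by 5.32 ± 0.67 (adjusted p = 0.000655) and Ccr9 fell by 2.51 ± 0.31 (adjusted p = 0.000625). Among genes of the pre-B cell receptor, Vpreb3 fell by 3.25 ± 0.55 (adjusted p = 0.00539), and the surrogate light chain gene Igll1 fell by 2.91 ± 0.72 (adjusted p = 0.0454) with 1 of 2 LT-HSC arrays well above background. Tcf7 fell by 3.02 ± 0.47 (adjusted p = 0.00337) and Polm fell by 1.53 ± 0.21 (adjusted p = 0.00127). Ly6d read 14.18 and 13.08 in LT-HSC and 4.57 to 10.48 on the other arrays. Vpreb3, which read 9.04 and 7.86 in LT-HSC, was also 8.07, 7.09 and 8.55 in MEP and 4.85 to 5.91 in ST-HSC and MPP. Ly6d and Vpreb3 thus had their highest mean in LT-HSC, as Blnk did, and not in MPP.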

How the data were processed

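RNA of 17 sample pools was hybridised to 1-colour (Cy3) Agilent 4x44k whole mouse genome arrays. Per the file headers, the deposited spot intensities were read with Agilent Feature Extraction 9.5.3.1 on the 6 arrays numbered 1 or 2 in CMP, GMP and MEP (probe positions on mm7) and 10.2.1.3 on the others (mm9), with background and spatial trend corrected within each array. The authors also deposited a table of normalized log2 values, whose order within each array was that of the median spot signal (Spearman 1.0000). Its column medians were 6.40 to 6.42, and its scale beyond this was not stated. It served as an alternative only.

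Here log2 processed intensity was quantile normalized, control and outlier spots were dropped, and spots were averaged per probe, leaving 41174 probes (161 missing values) under 28090 gene names. Populations were taken from the sample labels. Means were compared with limma 3.58.1 (R 4.3.3) in 1 model of 6 populations, with Benjamini-Hochberg adjustment over all probes and a threshold of 0.05, after the script was tested on simulated data. Where no array of the dimmer group had the probe well above background, the fold is a lower bound against the lowest signal well above background on those arrays. Arrays were scanned on 4 days, and the alternatives were other normalizations, normexp, a filter on dim probes, scan day or slide as a block, and leaving out each array.

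The members and the wider gene and marker lists were chosen with earlier results of these data known. Named genes are all members, the 3 genes most like each, and up to 4 genes that passed per wider list. Same-numbered arrays on different slides did not deviate together (correlations of deviations -0.06 to 0.01, against 0.13 to 0.52 on a shared slide). The pairs on different slides all came from different sorts, and same-numbered pairs within a sort all shared a slide. Pairing by pooled animals can therefore not be told apart from a shared slide. Files of microRNA levels were not used here. Some genes of the marker lists are not reported here and were left out of their sums.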

Additional observations from a re-analysis of the deposited data

How the results depend on the processing

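Of 48 differences of brightest probes, 30 passed the test, and over 807 alternative values of these 30, 760 kept their direction and side of the threshold, 47 lost the call and 0 turned round. Over all 48, 16 values gained a call: 5 for Il7r in MEP against CMP, 4 for Il7r and 1 for Blnk in CMP against MPP, and 2 each for Dntt, Flt3 and Rag1 in ST-HSC against LT-HSC. The number of member probes that passed in ST-HSC against LT-HSC, 3, was 1 after 75th-percentile normalization, and the number in CMP against MPP, 4, was 0 with scan day as a block and 0 with days merged into 3 scanning periods, an alternative chosen after seeing the data. With the mean of all probes of a gene, which leaves 8 values in place of 15, the numbers were 2 for CMP against MPP, 5 for MEP against CMP and 7 for the stem cell subsets against the myeloid populations, and the 8 genes passed in MPP against ST-HSC. Leaving out single arrays gave 1 to 6 for ST-HSC against LT-HSC (1 without ST-HSC replicate 2 or 3, 6 without the unnumbered MEP array) and 0 to 7 for CMP against MPP (0 without CMP replicate 2, 1 without MPP replicate 2, 2 without CMP replicate 1 or MPP replicate 3, 7 without the unnumbered MEP array). With both LT-HSC arrays left out, 12 probes passed in MPP against ST-HSC. The causes were not tested.

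With the replicate block, 12 member probes passed in MPP against ST-HSC and 4 in CMP against MPP. The number was 9 in each of GMP against CMP, MEP against CMP and the stem cell subsets against the myeloid populations. These counts are given without the share over all probes under this block. Dntt in CMP against MPP (adjusted p = 0.0579) and Rag1 in the stem cell subsets against the myeloid populations (1.12, adjusted p = 0.178) lost the call. Il7r gained it in CMP against MPP (-1.52) and in MEP against CMP (-1.21, adjusted p = 0.0219). The replicate label of the pooled LT-HSC array is shared by no other array, so LT-HSC rests on its unnumbered array alone under this block. In ST-HSC against LT-HSC the differences were then -1.53 for Il7r and -2.38 for Flt3.

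The differences that changed sign had not passed in the first place. For Rag1 in MEP against CMP the value was 0.15 after 75th-percentile normalization, 0.11 after normexp, 0.19 in the authors' table, 0.01 as the mean of its probes, and -1.51 to 0.43 with single arrays left out. Flt3 in CMP against MPP ranged from -0.99 to 0.06 with single arrays left out. Rag2 was 0.01 in ST-HSC against LT-HSC and -0.00 in the stem cell subsets against the myeloid populations after normexp, -0.04 in the latter in the authors' table, and 0.56 in MEP against CMP after 75th-percentile normalization. Signal over background limits Rag2 on 16 of 17 arrays and Rag1 on 11.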

Other observations

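One further probe, A_52_P363188 (mm9 chr15:9458725-9458784), carries the description of an IL-7 receptor product but a cDNA's name in place of Il7r, so the rule for the members does not take it. It was well above background on 1 array, the pooled LT-HSC array, at 5.09. Dntt and Blnk, whose brightest probes correlated at 0.91, lie 130448 bases apart on chromosome 19.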
